A study of Mus musculus with 8 samples.

Results

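The mRNA levels of 10 genes of the oxidative stress and metal response were compared between mouse embryonic stem cells (ESCs) that carried different forms of the chromatin protein BAZ2A. The genes were chosen by symbol: the transcription factor gene *Nfe2l2*, which encodes NRF2, 7 genes commonly used as readouts of NRF2 (*Nqo1*, *Hmox1*, *Gclc*, *Gclm*, *Srxn1*, *Txnrd1* and *Gsr*) and the metallothionein genes *Mt1* and *Mt2*. Each had 1 entry among the 50902 genes of the deposited table, and all 10 passed the filter on low values. The ESCs, of the E14 line, were grown in N2B27 medium with LIF and 2i and transfected with siRNA against *Baz2a*, and RNA was taken 3 days later. The PiggyBac transposase had been used to insert a transgene for BAZ2A tagged with Flag and HA and insensitive to this siRNA, coding for full BAZ2A in ESC + F/H-BAZ2Ar-WT and for BAZ2A without its TAM domain in ESC + F/H-BAZ2Ar-ΔTAM, in 4 libraries of each. BAZ2A is the large subunit of a chromatin remodelling complex, and binds RNA through its TAM domain. Transgenic cells were isolated as single-cell clones, and how many clones of each form were sequenced is not given in the sources used here, so the form of BAZ2A and the clone cannot be told apart. Nothing in the labels says that libraries of a line came from separate cultures, so p-values measure the spread between these libraries, which may be technical. The comparison asks whether the TAM domain bears on the mRNA level of each gene.

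NRF2 is held at low levels by KEAP1, which delivers it to an ubiquitin ligase, and accumulates when electrophiles or oxidants modify KEAP1. In the nucleus NRF2 pairs with small MAF proteins on antioxidant response elements, where BACH1 can hold the same sites in a repressed state. Metallothioneins are small cysteine-rich proteins that bind zinc, copper and cadmium, and their genes respond to the zinc sensor MTF1 through metal response elements, and in part to NRF2 and to glucocorticoids.

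Promoter sequence of these genes is given for the letters that such elements share. RefSeq windows of GRCm38.p6, 250 bases before to 50 bases after a start, were matched by symbol for 7 of the 10 genes (*Nfe2l2*, *Nqo1*, *Gclm*, *Srxn1*, *Txnrd1*, *Mt1* and *Mt2*), with 9 windows in all because *Txnrd1* had 3. Searched on both strands, the antioxidant response element core was TGACNNNGC or TGAGNNNGC and the metal response element core was TGCACNC or TGCGCNC. The antioxidant letters were in 5 of the 9 windows and the metal letters in 4, against 27.8% and 25.7% of all 32851 windows of this length. At least 3 metal cores were in the windows of *Mt1*, *Mt2* and *Gclm*, against 1.97% of all windows. The metallothionein windows are printed to base 30 after the start because these genes fell together, with metal response element letters in capitals:
Mt1 promoter, chr8:94178839-94179118, plus strand: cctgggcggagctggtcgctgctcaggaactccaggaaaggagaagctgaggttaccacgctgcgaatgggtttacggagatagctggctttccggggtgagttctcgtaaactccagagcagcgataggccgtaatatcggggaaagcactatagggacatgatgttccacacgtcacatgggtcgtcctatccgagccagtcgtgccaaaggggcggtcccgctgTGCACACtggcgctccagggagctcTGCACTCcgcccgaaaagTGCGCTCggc
Mt2 promoter, chr8:94172368-94172647, plus strand: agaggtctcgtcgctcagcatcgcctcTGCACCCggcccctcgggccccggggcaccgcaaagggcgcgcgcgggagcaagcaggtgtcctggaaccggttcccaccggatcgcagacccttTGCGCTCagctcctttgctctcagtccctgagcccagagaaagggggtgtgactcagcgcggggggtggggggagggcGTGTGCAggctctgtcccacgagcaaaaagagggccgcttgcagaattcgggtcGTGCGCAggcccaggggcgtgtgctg
Counted from the RefSeq start, the first metal core in *Mt1* began at base -23 and the others at bases 3 and 21. Those of *Mt2* began at bases -223, -128, -50 and 5. Whether transcription began at these starts in these cells was not tested. *Mt2* also had the antioxidant letters from base -79 to -71. For the regulator gene and for 2 genes coding for NRF2 target enzymes, 1 that rose and 1 that was not called, the 250 bases before the start are printed with antioxidant letters in capitals:
Nfe2l2 promoter, chr2:75704664-75704913, minus strand: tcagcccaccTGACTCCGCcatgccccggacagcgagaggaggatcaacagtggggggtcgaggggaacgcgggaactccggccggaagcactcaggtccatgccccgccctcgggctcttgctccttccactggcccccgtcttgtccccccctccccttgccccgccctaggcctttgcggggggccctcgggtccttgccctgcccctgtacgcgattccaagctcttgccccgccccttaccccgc
Gclm promoter, chr3:122245307-122245556, plus strand: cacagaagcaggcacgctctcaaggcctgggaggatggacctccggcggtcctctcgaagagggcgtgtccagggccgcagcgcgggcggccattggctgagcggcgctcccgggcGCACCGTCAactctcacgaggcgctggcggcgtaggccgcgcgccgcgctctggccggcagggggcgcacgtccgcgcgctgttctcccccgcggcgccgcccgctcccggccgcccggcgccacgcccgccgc
Srxn1 promoter, chr2:152105274-152105523, plus strand: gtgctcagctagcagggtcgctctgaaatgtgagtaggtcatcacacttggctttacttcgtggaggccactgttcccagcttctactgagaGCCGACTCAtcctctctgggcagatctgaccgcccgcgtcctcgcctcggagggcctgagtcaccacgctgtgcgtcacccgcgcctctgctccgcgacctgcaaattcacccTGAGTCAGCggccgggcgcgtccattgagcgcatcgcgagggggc
Another antioxidant core of *Srxn1* lay from base 29 to 37. In *Gclm* the antioxidant letters from base -134 to -126 overlapped a metal core from -138 to -132. The single match of *Txnrd1*, from base -92 to -84, was in the second of its windows, and the window of *Nqo1* held neither set of letters. A match is only a match of letters, and no match says nothing of sites outside a window.

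The 10 genes did not move one way. With limma on log2(RPKM + 0.1) and a Benjamini-Hochberg adjusted p under 0.05 over 9000 genes as the call, 4 were higher in ESC + F/H-BAZ2Ar-ΔTAM (*Nqo1*, *Gsr*, *Nfe2l2* and *Gclm*), 4 were lower (*Mt1*, *Mt2*, *Hmox1* and *Txnrd1*) and 2 were not called (*Gclc* and *Srxn1*). RPKM here is reads per kilobase of the gene's genomic span, scaled to library size. The same call took 35.8% of all genes tested, 19.9% as higher and 15.9% as lower. The median log2 fold change of the 10 genes was -0.014, against 0.011 over all genes, and the median size of the change regardless of sign was 0.30, against 0.13. The 10 genes were chosen with earlier results of these data known, so their shares and sizes beside all genes are description only. *Nqo1*, *Mt1* and *Mt2* were also past the thresholds of the study, a log2 fold change of 0.58 or more in either direction and p under 0.05. The p was taken here as unadjusted, which the paper does not state. These thresholds took 3.79% of all genes tested. That share depends on the added 0.1 RPKM, which shrinks the change of weakly expressed genes. By voom on recovered reads, 1495 of 12657 genes were past them, with 3 of the 10 genes. In 8 of the 10 genes the libraries of both lines did not overlap, as in 37.2% of all genes tested. For each of these 8 genes the two-sided exact permutation test of RPKM gave p = 0.0286, the smallest that 4 against 4 libraries allow. The test took the libraries as unpaired, although same-numbered libraries deviated together. In bulk RNA, fewer cells of a kind and less RNA per cell cannot be told apart.

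**Figure D1:**
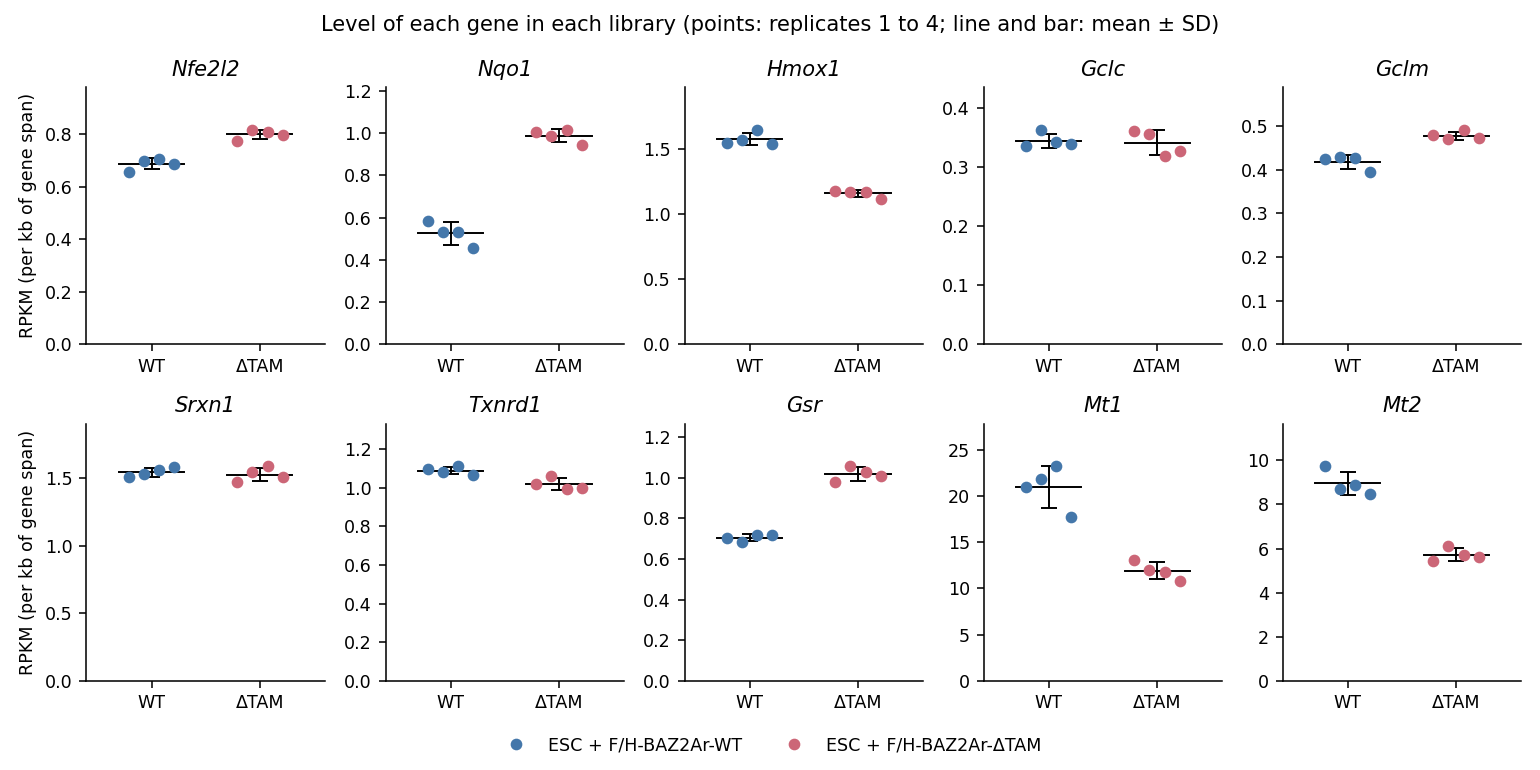
RPKM per kilobase of gene span (y axis, from 0, own scale per gene) of the 10 genes in the 4 ESC + F/H-BAZ2Ar-WT and 4 ESC + F/H-BAZ2Ar-ΔTAM libraries, with points for libraries in the order of their replicate numbers and a line and bar for mean ± SD. The libraries of both groups overlap only in Gclc and Srxn1, and the 4 libraries of Mt1 lie between 17.8 and 23.2 in WT and between 10.8 and 13.0 in ΔTAM.

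*Nfe2l2* itself was slightly higher. It lies on the minus strand of chromosome 2 (mm10) from 75675513 to 75704641. Its level in ESC + F/H-BAZ2Ar-WT was 0.659, 0.698, 0.708 and 0.687 RPKM in replicates 1 to 4, against 0.777, 0.817, 0.808 and 0.800 RPKM in ESC + F/H-BAZ2Ar-ΔTAM. Each ΔTAM library was above each WT library, with means of 0.688 ± 0.0214 and 0.800 ± 0.0171 RPKM (SD, n = 4 each). Its change was 0.19 on the log2 scale with a standard error (SE) of 0.028 (limma adjusted p = 0.00165), which corresponds to 1.16 times the WT mean.

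The largest increases among the 10 genes were those of *Nqo1* and *Gsr*. *Nqo1*, which encodes the quinone reductase NQO1 and lies on the minus strand of chromosome 8 from 107388225 to 107403206, had 0.581, 0.533, 0.532 and 0.454 RPKM in WT replicates 1 to 4. The ΔTAM libraries had 1.01, 0.984, 1.01 and 0.945 RPKM. The lowest ΔTAM library was thus well above the highest WT library, and WT replicate 4 was the lowest of all. *Nqo1* rose from 0.525 ± 0.0527 to 0.987 ± 0.0307 RPKM (SD, n = 4), or 1.88 times, with a log2 fold change of 0.80 (SE 0.061, limma adjusted p = 9.24e-05).

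*Gsr* encodes glutathione reductase, which returns oxidised glutathione to its reduced form with NADPH, and lies on chromosome 8 from 33652523 to 33698163. It was at 0.705, 0.682, 0.716 and 0.716 RPKM in the WT libraries and at 0.977, 1.05, 1.03 and 1.01 RPKM in the ΔTAM libraries. The spread within each line was small beside the gap between them. Its mean rose 1.44 times, from 0.705 ± 0.0157 to 1.02 ± 0.0333 RPKM (SD, n = 4), a log2 fold change of 0.47 (SE 0.029, limma adjusted p = 4.36e-05). The snoRNA gene *Gm24727* lies within *Gsr*, and the use of strand in counting is not given in the sources used here.

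Glutathione is made by glutamate-cysteine ligase and then glutathione synthetase, and the subunits of the ligase behaved differently. *Gclm* encodes the modifier subunit and lies on chromosome 3 from 122245557 to 122270732, where it overlaps the antisense transcript *Gm17494* and the pseudogene *Gm6061*. It had 0.423, 0.428, 0.426 and 0.394 RPKM in the WT libraries and 0.479, 0.470, 0.490 and 0.471 RPKM in the ΔTAM libraries. WT replicate 4 was below the other three, and all ΔTAM libraries were above all WT libraries. *Gclm* rose 1.14 times, with a log2 fold change of 0.16 (SE 0.029, limma adjusted p = 0.00485), and without WT replicate 4 the log2 fold change was 0.14 (adjusted p = 0.00741).

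*Gclc*, on chromosome 9 from 77754535 to 77794485, encodes the catalytic subunit. The WT libraries had 0.336, 0.363, 0.342 and 0.339 RPKM and the ΔTAM libraries 0.362, 0.357, 0.319 and 0.327 RPKM. These ranges overlapped, ΔTAM replicates 1 and 2 being near the highest WT library and replicates 3 and 4 below all WT libraries. Its log2 fold change was -0.012 (95% confidence interval -0.11 to 0.081, limma adjusted p = 0.837). Per kilobase of transcript, the ratio of *Gclm* to *Gclc* was 0.468 ± 0.0184 in WT and 0.542 ± 0.0402 in ΔTAM (SD, n = 4). All 4 ΔTAM ratios, from 0.508 to 0.593, were above the highest WT ratio of 0.487 (two-sided exact permutation test with libraries unpaired, p = 0.0286).

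The thioredoxin-related genes among the 10 were *Txnrd1* and *Srxn1*. *Txnrd1* encodes cytosolic thioredoxin reductase and lies on chromosome 10 from 82833951 to 82897712, where it overlaps *Eid3* and the opposite-strand genes *Gm38560* and *Gm47073*. It had 1.10, 1.08, 1.11 and 1.07 RPKM in the WT libraries and 1.02, 1.06, 0.993 and 0.999 RPKM in the ΔTAM libraries. The lines did not overlap, but ΔTAM replicate 2 came close to WT replicate 4. The fitted log2 fold change was -0.090 (SE 0.028, limma adjusted p = 0.0372). With the replicate number as a block the adjusted p of *Txnrd1* from limma was 0.0863, and it was above 0.05 in 6 of the 8 fits that left out 1 library, at up to 0.0960 without one of WT replicates 1 to 3 or ΔTAM replicates 1, 3 and 4. The block called 7 of the 10 genes, and 31.1% of all genes tested.

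*Srxn1* encodes sulfiredoxin, which repairs over-oxidised peroxiredoxins, and lies on chromosome 2 from 152105516 to 152111376. *Srxn1* transcripts were at 1.51, 1.53, 1.56 and 1.58 RPKM in WT replicates 1 to 4 and 1.47, 1.55, 1.59 and 1.51 RPKM in the ΔTAM replicates. These ranges overlapped almost fully. The log2 fold change of *Srxn1* was -0.015 (95% confidence interval -0.084 to 0.053, limma adjusted p = 0.726), so a change as large as that of *Gsr* or *Nqo1* lay outside its interval.

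*Hmox1* moved against *Nqo1* and *Gsr*. It encodes the inducible haem oxygenase, which breaks haem down to biliverdin, carbon monoxide and iron, and is known as a target of both NRF2 and BACH1. On chromosome 8 from 75093621 to 75100589, it had 1.55, 1.57, 1.64 and 1.54 RPKM in the WT libraries and 1.18, 1.17, 1.17 and 1.12 RPKM in the ΔTAM libraries. All ΔTAM libraries were lower than all WT libraries. *Hmox1* fell from 1.58 ± 0.0481 to 1.16 ± 0.0263 RPKM (SD, n = 4), to 0.735 times the WT mean, with a log2 fold change of -0.41 (SE 0.029, limma adjusted p = 7.15e-05).

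Both metallothionein genes fell. *Mt1* and *Mt2* are neighbours on the plus strand of chromosome 8, *Mt2* from 94172664 to 94173568, where it overlaps the antisense transcript *Gm45774*, and *Mt1* from 94179082 to 94180327. *Mt1* had 21.0, 21.9, 23.2 and 17.8 RPKM in WT replicates 1 to 4 and 13.0, 12.0, 11.8 and 10.8 RPKM in the ΔTAM replicates. Replicate 4 was the lowest library of each line. The mean of *Mt1* fell from 21.0 ± 2.31 to 11.9 ± 0.898 RPKM (SD, n = 4), or to 0.568 times, and the log2 fold change was -0.81 (SE 0.089, limma adjusted p = 0.000444).

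*Mt2* had 9.72, 8.72, 8.88 and 8.49 RPKM in the WT libraries and 5.43, 6.11, 5.73 and 5.60 RPKM in the ΔTAM libraries. It fell to 0.639 times the WT mean, from 8.95 ± 0.538 to 5.72 ± 0.289 RPKM (SD, n = 4), with a log2 fold change of -0.64 (SE 0.052, limma adjusted p = 0.000116). The order of the libraries within a line differed between the genes, since WT replicate 1 was the highest for *Mt2* and replicate 3 for *Mt1*. Per kilobase of transcript the ratio of *Mt1* to *Mt2* was 3.01 ± 0.327 in WT and 2.68 ± 0.270 in ΔTAM (SD, n = 4), a difference within the spread between libraries (two-sided exact permutation test, p = 0.171). Their short transcripts are similar in sequence, and how the authors' counting treated reads that fit both is not given in the sources used here.

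**Figure D2:**
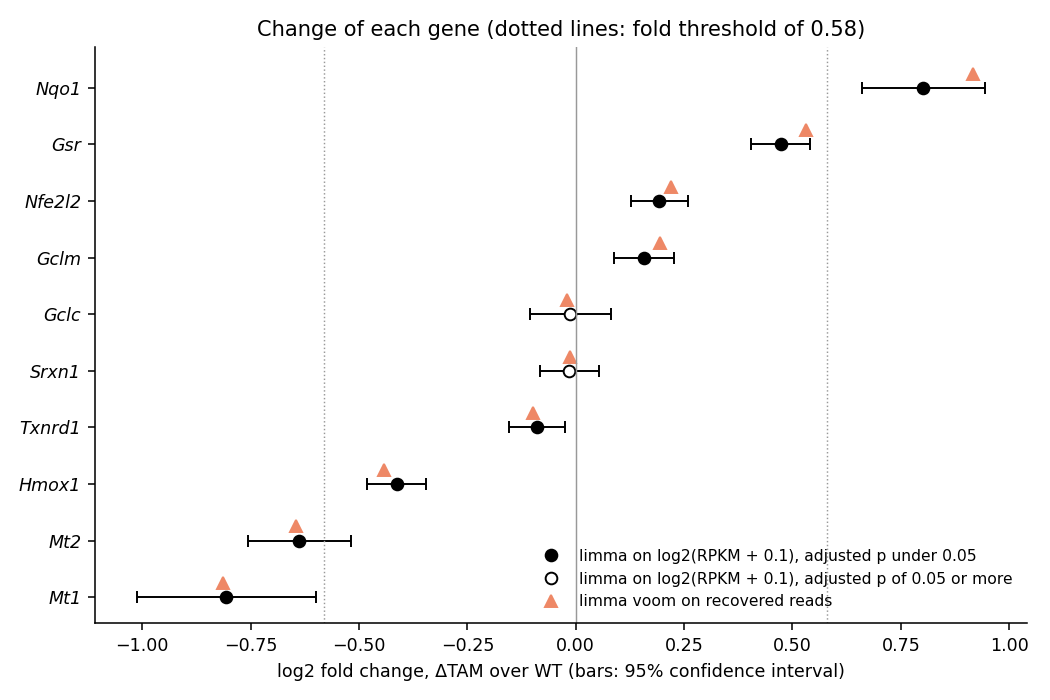
Log2 fold change of ΔTAM over WT (x axis) for each of the 10 genes, with circles and 95% confidence intervals from limma on log2(RPKM + 0.1), filled where the adjusted p was under 0.05, and triangles from limma voom on recovered reads. The values run from -0.81 for Mt1 to 0.80 for Nqo1, and the 2 open circles, Gclc and Srxn1, have intervals that include 0.

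The reads behind these values were recovered from the RPKM steps and ranged per library from 222 for *Mt2* to 3698 for *Txnrd1*. A count-based fit (limma voom, over genes that averaged 10 or more reads) called the same 8 of the 10 genes in the same directions, and 43.9% of the 12657 genes it tested. The added 0.1 RPKM shrinks the change of weakly expressed genes on the log2(RPKM + 0.1) scale, and the voom log2 fold changes were larger for *Nqo1* (0.92), *Gsr* (0.53) and *Gclm* (0.20) and nearly equal for *Mt1* (-0.81) and *Mt2* (-0.65).

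Levels were compared between genes only relative to transcript length, as reads per kilobase of the longest principal transcript in GENCODE vM21, scaled to library size. *Mt1* was the most abundant of the 10 in ESC + F/H-BAZ2Ar-WT, at 47.6 ± 5.24, followed by *Txnrd1* at 19.7 ± 0.352 and *Mt2* at 15.8 ± 0.952 (SD, n = 4). *Gsr* (12.0), *Nfe2l2* (8.10), *Hmox1* (7.00) and *Nqo1* (5.06) came next, and the lowest means were those of *Gclc* (4.02), *Srxn1* (3.22) and *Gclm* (1.88). No neighbours in this order overlapped across the WT libraries. In ΔTAM, *Mt1* was still the highest, at 27.0 ± 2.04, and *Gclm* the lowest, at 2.15 ± 0.0425. *Gsr* (17.4) reached the range of *Txnrd1* (18.4), with library values that overlapped. *Mt2* (10.1), *Nqo1* (9.52) and *Nfe2l2* (9.42) overlapped their neighbours in turn, so their order in ΔTAM is not resolved. *Nqo1* thus passed from below *Hmox1* to above it (5.14 in ΔTAM).

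**Figure D3:**
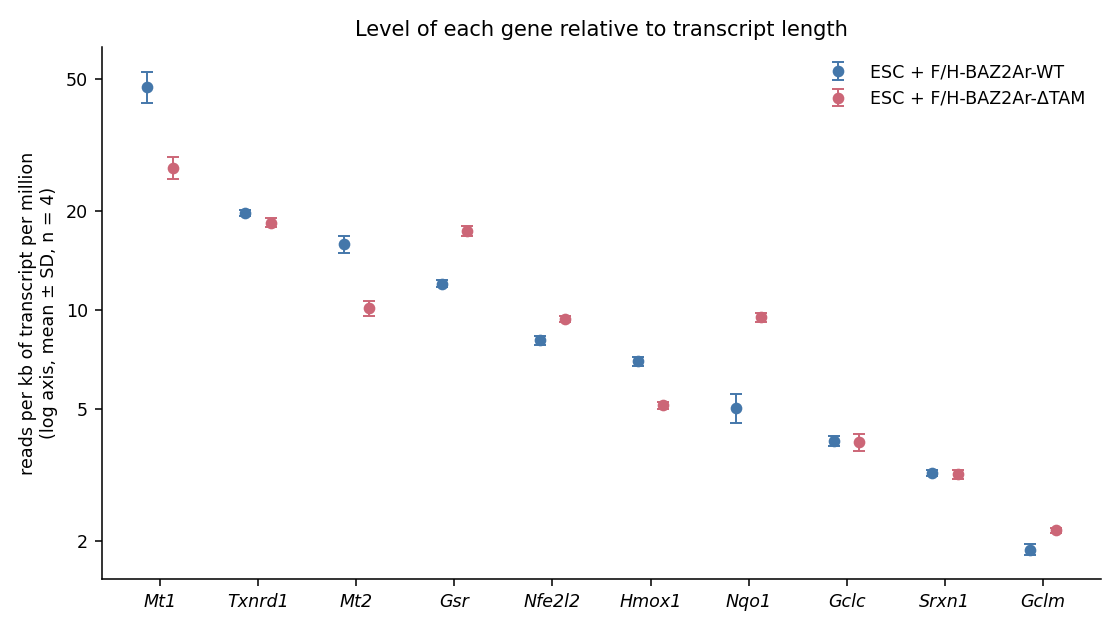
Mean ± SD over 4 libraries of reads per kilobase of transcript, scaled to library size (y axis, log scale) for the 10 genes, ordered by their WT level. The order differs between the groups: Gsr is at 12.0 in WT and 17.4 in ΔTAM while Mt2 is at 15.8 and 10.1.

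Among 14 regulators and partners of NRF2, 8 were tested, of which 2 were higher and 6 were not called (25% called, against 35.8% of all genes tested). Like the other lists, this list was written with earlier results of these data known. Its median log2 fold change was 0.046, which ranged from 0.030 without ΔTAM replicate 3 to 0.057 without ΔTAM replicate 2. *Mafg*, which encodes a small MAF partner of NRF2, rose from 2.42 ± 0.0488 to 3.06 ± 0.0653 RPKM (SD, n = 4), by 0.33 on the log2 scale (limma adjusted p = 0.000104). *Keap1* had 0.470 ± 0.0609 RPKM in WT and 0.599 ± 0.0374 RPKM in ΔTAM (SD, n = 4), a log2 fold change of 0.30 (limma adjusted p = 0.0183, and 0.0502 without WT replicate 1). The highest WT library of *Keap1*, replicate 2, stood near the ΔTAM level at 0.561 RPKM. *Bach1*, which encodes the repressor that competes for NRF2 sites, had a log2 fold change of -0.047 (SE 0.043, limma adjusted p = 0.432). By voom, which tested all 14 genes, 3 were higher and 2 lower, beside 43.9% called of all genes it tested.

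Of 28 other genes known as NRF2 targets, 21 were tested, 8 were higher and 4 lower (57.1% called, against 35.8% of all genes tested). The median log2 fold change of this list was 0.028. The lower genes of this list numbered 2 with the replicate block and without WT replicate 1, 2 or 3 or ΔTAM replicate 1. By voom, which tested 27 of the list, 10 were higher and 9 lower, beside 43.9% called of all genes it tested. With 1 library left out, the median of this list ranged from 0.017 (without ΔTAM replicate 2 or 3) to 0.053 (without ΔTAM replicate 1). *Gpx2*, a glutathione peroxidase gene, rose from 4.08 ± 0.297 to 9.14 ± 0.266 RPKM (SD, n = 4), with a log2 fold change of 1.15 (SE 0.053, limma adjusted p = 1.39e-05). *Pgd*, which encodes the second NADPH-producing enzyme of the pentose phosphate pathway, rose from 2.12 ± 0.0821 to 3.16 ± 0.150 RPKM, by 0.55 on the log2 scale. *Gstm1*, a glutathione transferase gene, fell by 0.45 on the log2 scale, from 3.42 ± 0.277 to 2.47 ± 0.112 RPKM. *Prdx6*, which encodes a peroxiredoxin, fell by 0.31. Genes of this list with near-identical copies elsewhere, such as *Gstm1*, *Ftl1* and *Fth1*, are uncertain. *Slc7a11*, the cystine importer gene, was under the filter at 0.00124 ± 0.000197 RPKM in WT and 0.000693 ± 0.000146 RPKM in ΔTAM, with a mean of 26.9 reads over an annotated span that makes its RPKM small. Its voom log2 fold change was -0.80 (limma voom adjusted p = 0.00456), while limma on log2(RPKM + 0.1) with no filter gave *Slc7a11* an adjusted p of 0.212.

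In the other glutathione, thioredoxin and superoxide genes, 19 of 24 were tested, with 5 higher and 4 lower (47.4% called, against 35.8% of all genes tested). The median log2 fold change was 0.024. Without WT replicate 3 the higher genes numbered 3 and without WT replicate 4 they numbered 2. The median ranged from -0.014 without ΔTAM replicate 2 to 0.065 without ΔTAM replicate 4, and was also negative without WT replicate 4 (-0.0044) and in 4 other alternatives, so the sign of this median is not settled. *Chac1*, whose product breaks down glutathione and which is known as a stress-induced gene, had the largest decrease among the genes of all 5 lists that passed the call, from 2.10 ± 0.256 to 0.816 ± 0.0538 RPKM (SD, n = 4), a log2 fold change of -1.26 (SE 0.082, limma adjusted p = 5.16e-05). The peroxidase genes *Gpx7* (0.30) and *Gpx3* (-0.32) moved in opposite directions, as log2 fold changes, and *Glrx2*, a glutaredoxin gene, rose by 0.21, with a limma adjusted p of up to 0.0609 in the 4 fits without WT replicate 1, 3 or 4 or ΔTAM replicate 3.

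Metal response and zinc transport were covered by 27 genes, of which 14 were tested, 4 were higher and 2 lower (42.9% called, against 35.8% of all genes tested). The median log2 fold change was 0.075. The higher genes numbered 3 with the replicate block, and the median was -0.25 where genes averaging under 1 RPKM were left out. By voom, which tested 20 of the 27 genes, 8 were higher and 4 lower, beside 43.9% called of all genes it tested. *Mtf1*, the zinc-sensing regulator of the metallothionein genes, had 0.105 ± 0.00470 RPKM in WT and 0.124 ± 0.0154 RPKM in ΔTAM (SD, n = 4), a log2 fold change of 0.12 (SE 0.056, limma adjusted p = 0.125). By voom its log2 fold change was 0.22 (adjusted p = 0.0277). *Slc30a1*, a zinc exporter gene that is a known target of MTF1, had a log2 fold change of -0.10 (SE 0.050, limma adjusted p = 0.159). *Slc30a2* fell by 0.56 and *Slc39a4* by 0.40 on the log2 scale. The importer genes *Slc39a10* and *Slc39a1* rose by 0.28 and 0.18. The other metallothionein genes, *Mt3* and *Mt4*, were at means of at most 0.0326 RPKM and were not tested.

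Of 10 haem and iron genes, 9 were tested, 2 were higher and 3 lower (55.6% called, against 35.8% of all genes tested). The median log2 fold change was -0.012. It ranged from -0.038 without ΔTAM replicate 2 to 0.0066 without ΔTAM replicate 1, and was also positive without ΔTAM replicate 3 (0.0056). *Tfrc*, the transferrin receptor gene, rose from 2.07 ± 0.0326 to 3.48 ± 0.0607 RPKM (SD, n = 4), by 0.72 on the log2 scale (limma adjusted p = 2.96e-06). *Slc11a2*, which encodes an iron importer, rose by 0.28. *Aco1*, which encodes an iron-regulatory protein, and *Fech*, which encodes the enzyme that puts iron into haem, fell by 0.16 and 0.15, and limma did not call *Fech* without WT replicate 1 or 3 or ΔTAM replicate 1, 2 or 4 (adjusted p of up to 0.0777). *Hmox2*, the constitutive haem oxygenase gene, had a log2 fold change of -0.012 (limma adjusted p = 0.883) beside the fall of *Hmox1*.

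**Figure D4:**
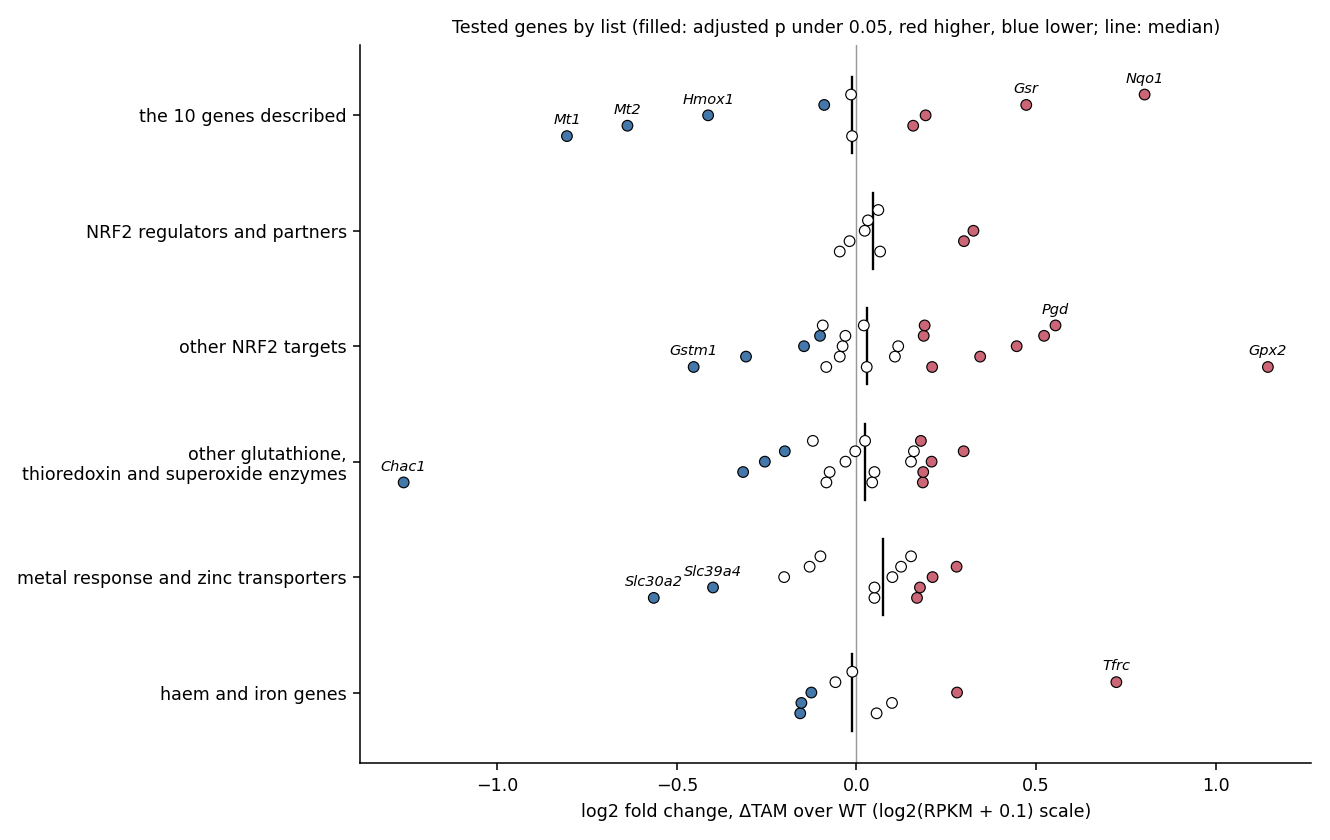
Log2 fold change of ΔTAM over WT (x axis) of each tested gene of the 10 described and of the 5 lists, red or blue where the adjusted p was under 0.05 and white otherwise, with a line at each median. Called genes lie on both sides of 0 in 5 of the 6 groups, and the medians lie between -0.014 and 0.075.

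Of the 10 genes, 5 (*Nqo1*, *Hmox1*, *Gsr*, *Mt1* and *Mt2*) are on chromosome 8, with 2 higher and 3 lower. The call took 35.6% of all genes tested on this chromosome, 81 as higher and 96 as lower. The median log2 fold change of the 497 genes tested on chromosome 8 was -0.0090, the lowest of the 19 autosomes, against 0.011 over all genes tested. With no filter on low values the medians were -0.0013 and 0.00042. Within 250 kb of the 10 genes, 39 other genes were tested, with 7 higher and 3 lower (25.6% called, against 35.8% of all genes tested). Near *Mt1* and *Mt2*, 2 of 5 such genes were lower and 0 higher. *Herpud1* was among these, with a log2 fold change of -0.61 (limma adjusted p = 0.000127). Near *Nqo1*, 4 of 7 were higher and 0 lower. Any part of the surroundings in the changes of the 10 genes was not tested.

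Libraries held between 6560881 and 8662855 reads on genes, and mitochondrial genes took 2.30% to 2.58% of them. *Baz2a* itself, the target of the siRNA, was at 9.95 to 11.2 RPKM in the WT libraries and 17.0 to 18.9 RPKM in the ΔTAM libraries, with endogenous and transgenic reads counted together, a log2 fold change of 0.79 (limma adjusted p = 3.39e-05). The level of *Baz2a* mRNA thus moved with the line beside the form of BAZ2A, and its part in the changes of the 10 genes cannot be told apart. For the protein, the paper reports similar BAZ2A levels in both lines on a western blot. The ESC identity was checked with 6 marker genes, whose summed level was 80.5 to 83.3 RPKM in WT and 68.5 to 74.1 RPKM in ΔTAM. *Sox2*, *Klf4* and *Esrrb* were lower, while *Pou5f1*, *Nanog* and *Zfp42* were not called. The 7 markers of primitive endoderm summed to 0.0183 to 0.0445 RPKM in WT and 0.0361 to 0.0612 RPKM in ΔTAM, all under the filter. The 6 fibroblast markers summed to 0.219 to 0.266 RPKM in WT and 0.195 to 0.279 RPKM in ΔTAM, with *Col3a1* at 0, and the 4 markers of primed cells or early mesoderm to 0.729 to 0.804 RPKM and 0.575 to 0.797 RPKM, with *Fgf5* at 0. The fall of 3 of the 6 ESC markers came in the same libraries as the changes of the 8 called genes, and its part in those changes was not tested.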

How the data were processed

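RNA was sequenced from 8 libraries (TruSeq Stranded mRNA, single end), 4 of ESC + F/H-BAZ2Ar-WT and 4 of ESC + F/H-BAZ2Ar-ΔTAM, grouped by their labels. The authors trimmed and mapped the reads to mm10 and deposited RPKM per gene and library without pooling; FastQC, Trimmomatic 0.36, STAR and DESeq2 are named in the submitters' processing notes. The annotation release and the use of strand or multi-mapping reads are not given in the sources used here. RPKM times gene span came in steps of 1 read, 99.5% of values above 0 being whole within 0.02. Of 51288 entries, 386 repeats were set aside. The 10 genes and the gene lists were chosen with earlier results of these data known.

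Fold changes came from limma 3.58.1 (R 4.3.3; lmFit, eBayes with trend) on log2(RPKM + 0.1) for genes averaging 0.1 RPKM or more. A gene was called at an adjusted p under 0.05. Named by rule were the 10 genes, *Keap1*, *Bach1*, *Mafg*, *Mtf1*, *Slc30a1* and *Slc7a11*, and in each list up to 2 called genes without overlap for each direction, by size. *Hmox2*, *Mt3*, *Mt4*, *Ftl1*, *Fth1* and *Herpud1* are mentioned outside this rule. Alternatives changed the pseudocount, filter, scaling, eBayes options or test (voom), added the replicate number as a block, or left out 1 library. Same-numbered libraries deviated together (correlations of 0.144 to 0.332 in 4 pairs), so the block was run as an alternative. That the numbers mark pairs comes from the data only. The main fit and the exact permutation tests took the libraries as unpaired. Python 3.11.15 drew the figures.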

Additional observations from a re-analysis of the deposited data

Results flagged for a closer look

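Among 64 groups of 4 libraries tested, 1 group for each line and each of the genes named by rule, 5 held a library that stood apart from the other three by most of the group's range. Chance gives about 1 in 20. In ESC + F/H-BAZ2Ar-WT, *Gclm* was at 0.394 RPKM in replicate 4, with the other libraries at 0.423 to 0.428. *Keap1* was at 0.561 RPKM in WT replicate 2, with the others at 0.432 to 0.453. *Gstm1* was at 3.83 RPKM in WT replicate 1, with the others at 3.24 to 3.33. *Chac1* was at 2.48 RPKM in WT replicate 3, with the others at 1.93 to 2.01. *Gpx2* was at 9.53 RPKM in ΔTAM replicate 2, with the others at 8.96 to 9.03. The libraries concerned differed from gene to gene.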

How the results depend on the processing

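*Nfe2l2*, *Nqo1*, *Hmox1*, *Gclm*, *Gsr*, *Mt1* and *Mt2* kept their direction and their call in every alternative run that tested them. Their size depended on the pseudocount, and with 1 RPKM the log2 fold changes were 0.38 for *Nqo1*, 0.24 for *Gsr*, 0.093 for *Nfe2l2*, 0.060 for *Gclm* and -0.25 for *Hmox1*. *Txnrd1* kept its direction and lost its call with the replicate block (adjusted p = 0.0863 from limma) and in 6 leave-one-out fits. The block, which gave 2796 genes in place of 3225, changed no other call among the 10 genes. Leaving out 1 library moved the log2 fold change of *Gclc* between -0.035 and 0.012, positive without WT replicate 2 (0.0067), ΔTAM replicate 3 (0.012) or ΔTAM replicate 4 (0.0027), and that of *Srxn1* between -0.032 and 0.0017, positive without ΔTAM replicate 1. Genes past the study's thresholds numbered 341, and 551 with a pseudocount of 0.01 RPKM, 47 with 1 RPKM, 78 with a filter of at least 1 RPKM and 1495 by voom. Of the 10 genes, 1 was past them with a pseudocount of 1 RPKM in place of 3. The filter of 1 RPKM left 2148 genes, with 989 called (590 higher, 399 lower), and 4 of the 10 genes, none of them higher (0), because the 4 that rose are under it. Voom called 5551 genes (2773 higher, 2778 lower). The chromosome 8 median was -0.0013 with no filter. The medians of the gene lists moved with the filter, the scaling and the pseudocount. With the filter of 1 RPKM they were -0.0012 for other NRF2 targets, -0.053 for glutathione, thioredoxin and superoxide genes, -0.25 for metal genes and 0.72 for haem and iron genes. The glutathione median was also negative with no filter (-0.0034), quantile normalization (-0.0074) and voom (-0.0020). With a pseudocount of 1 RPKM the medians were 0.015 for NRF2 regulators, 0.019 for metal genes and -0.0019 for haem and iron genes. With no filter those of regulators, other targets, metal and haem genes were 0.022, 0.0063, 0.042 and -0.0041, and with quantile normalization those of regulators, other targets and haem genes were 0.028, 0.0085 and -0.036. With median-ratio scaling the medians of other targets, glutathione genes and haem genes were 0.014, 0.0096 and -0.019, and the haem median was -0.023 with a pseudocount of 0.01 RPKM and -0.031 by voom. The 10 genes had 222 to 3698 reads per library and standard errors of 0.028 to 0.089.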

Other observations

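Several genes of the lists were expressed below the filter of 0.1 RPKM and are given here from limma voom on recovered reads, and those named were picked out after their values were seen. The metal transporter genes *Slc39a14* and *Slc30a10* had voom log2 fold changes of 1.13 (adjusted p = 1.25e-08, a mean of 147 reads per library) and 1.14 (adjusted p = 7.20e-06, 55.8 reads), and their libraries did not overlap between ESC + F/H-BAZ2Ar-WT and ESC + F/H-BAZ2Ar-ΔTAM. *Slc39a14* encodes an importer of zinc, iron and manganese, and *Slc30a10* a manganese exporter. *Bach2*, which encodes a transcription repressor related to BACH1, was at 0.00853 ± 0.000910 RPKM in WT and 0.0190 ± 0.00197 RPKM in ΔTAM (SD, n = 4), with a voom log2 fold change of 1.17 (adjusted p = 1.26e-09). *Ephx1*, an epoxide hydrolase gene known as an NRF2 target, fell by 1.04 on the log2 scale by voom (adjusted p = 2.22e-08), from 0.0891 ± 0.00660 to 0.0430 ± 0.00417 RPKM (SD, n = 4). The small MAF gene *Maff* fell by 0.84 on the log2 scale by voom (adjusted p = 0.00796) with a mean of 18.5 reads per library, beside the rise of *Mafg*. Limma on log2(RPKM + 0.1) with no filter gave smaller changes in the same directions: 0.41 for *Slc39a14*, 0.49 for *Slc30a10*, 0.13 for *Bach2*, -0.40 for *Ephx1* and -0.20 for *Maff*, with adjusted p from 0.00106 to 0.0283.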
